A study of Caenorhabditis elegans with 2 samples.

Results

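The 8 Caenorhabditis elegans genes described here encode LIN-35, the worm member of the Retinoblastoma family, and 7 proteins that work with it in the DREAM complex. They are lin-35, efl-1, dpl-1, lin-9, lin-37, lin-52, lin-53 and lin-54, out of 19973 nuclear protein-coding genes in the annotation. They were chosen by name after a strong region upstream of lin-35 had been seen in these data, so the ranks below describe the genes and are not a test of them. Whole young adult worms of mixed sex and 70 hours of age, grown from a bleached and starved L1 culture, were used for chromatin immunoprecipitation and sequencing with an antibody against green fluorescent protein. Strain OP628 is unc-119 (tm4063) and carries the integrated transgene wgIs628, in which ccch-3 bears a TY1 EGFP 3xFLAG tag, together with a working unc-119(+) copy. The tag sits at the C terminus of CCCH-3, which has CCCH zinc fingers, and the question is which DNA is recovered with it. There is 1 group with 2 biological replicates, both of this strain, and no other strain was analysed here. Whole animals were used, so a region cannot be placed in a tissue, and the level of the tagged protein is not given.

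In animals, DREAM brings together a Retinoblastoma-like pocket protein, an E2F and DP pair that binds DNA, and the MuvB core, and it represses cell cycle genes. In C. elegans the same proteins are known as class B synthetic multivulva (synMuv B) products, because their loss together with a class A gene gives ectopic vulvae. They also keep germline genes silent in somatic cells. The members are taken below as genes whose own DNA was or was not recovered with CCCH-3. Binding by DREAM was not measured.

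The deposited peak lists hold 30000 candidate regions for each replicate, 30000 for the pooled reads, and 218 peaks that passed a threshold on the irreproducible discovery rate, a measure of how well ranks match between replicates. These 218 are called reproducible peaks, and all 218 are the highest regions of the pooled list. Regions were ranked within each list by the authors' signal value, with rank 1 the highest. The scale of that value is not stated and read depth is unknown, so values were not compared between lists, and no value carries a counting error. The candidate lists include background by design. A q-value of 0.05 or less was reached by 229 pooled regions, by 202 of replicate 2 and by 0 of replicate 1. A region was given to a gene when its summit lay in the gene or within 1000 bp upstream of its annotated start.

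The pocket protein gene lin-35 (chromosome I, 5807709 to 5815637, plus strand) was the member with the strongest region. In the pooled list this region (5807318 to 5807717) had a signal value of 144 and rank 65 of 30000, with a q-value of 0.00488. It ranked 39 in replicate 1, with a q-value of 0.125 (25 once mitochondrial regions were set aside, a step chosen after seeing the data), and 117 in replicate 2, with a q-value of 0.0102. Each q-value was the lowest of its list, where it was shared by 103, 188 and 147 regions. The region was therefore among the highest 218 of every list, and the summits of the replicates lay 25 bp apart.

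The lin-35 summit lay in the 417 bp of intergenic sequence between lin-35 and vps-51, a gene of a membrane tethering complex that is transcribed the other way. It was 191 bp upstream of the start of lin-35 and 227 bp upstream of that of vps-51. The median width of pooled regions is 400 bp, so this difference of distance does not assign the peak to either gene. Within the long gene body of lin-35 the pooled list held 2 more regions, both in introns. The stronger, 3345 bp downstream of the start, ranked 3790, 5024 and 14102 in the pooled list, replicate 1 and replicate 2. The weaker had rank 21503, was overlapped in replicate 2 only, and lay 244 bp upstream of C32F10.4, a gene inside lin-35 on the opposite strand.

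Across the 8 members, best ranks fell into a wide range. A reproducible peak lay in the window of 1 member, where 1.14% of all protein-coding genes had one, and this count is what led to the choice of the genes. A pooled candidate summit lay in the window of 5 members (62.5%) against 61.9% of all genes, so the members were near the background. In replicate 1 a summit was present for 5 members against 63% of all genes, and in replicate 2 for 6 members (75%) against 62.3%. Both replicates had one for 5 members against 46.8%, but not always at the same site. A pooled region was overlapped in each replicate list in 4 members, and the share of all genes under that rule was not computed. Among the 3000 highest pooled regions lay a summit of 3 members (37.5%, against 11.3% of all genes), namely lin-35, lin-53 and lin-54. The median best pooled rank was 2188 over the 5 members with a summit and 10377 over all 12369 genes with one. The count of 3 and the median include lin-35, whose region led to the choice of the genes. The value of 2188 is the rank of the lin-54 region, which had no counterpart in replicate 1. In replicate 1 the medians of members and of all genes were 3099 and 10333, and in replicate 2 they were 2082.5 and 10266.

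**Figure D1:**
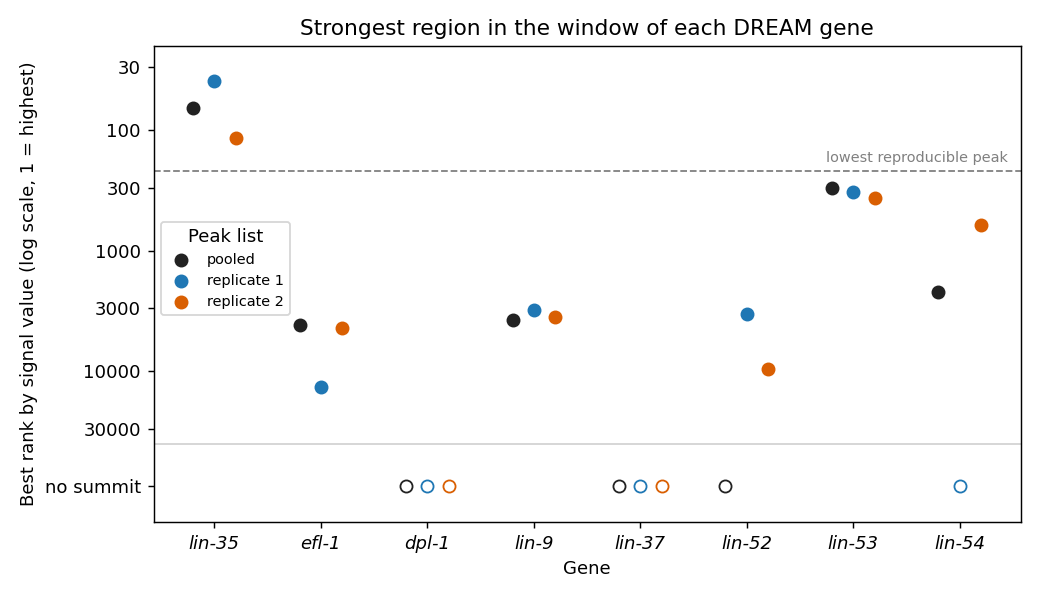
Rank of the strongest region in the window of each gene (y axis, log scale, rank 1 highest) in the pooled list and in each replicate list. Open circles mark genes with no summit in that list, and the dashed line is rank 218, the lowest reproducible peak. Only lin-35 lies above the line, and dpl-1 and lin-37 have no summit in any list.

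The E2F and DP pair was split between a weak region and none. The gene efl-1 (V, 16958590 to 16965675, minus strand) encodes an E2F transcription factor, which binds DNA together with its DP partner. Its strongest region had rank 4123 and a signal value of 51.5 in the pooled list, rank 13531 in replicate 1 and rank 4389 in replicate 2. The pooled q-value was 0.816, far above that of any reproducible peak. The place was much the same in each list. The summit lay 318 bp upstream of the start in the pooled list and replicate 2 and 339 bp upstream in replicate 1, in intergenic sequence. The start of the F-box gene fbxa-90, on the other strand, lay 821 bp away. A further pooled region, at rank 25250, lay in an exon of efl-1.

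The DP partner gene dpl-1 (II, 9169910 to 9172565, plus strand) had no summit in its 3656 bp window in any of the 3 candidate lists. The nearest pooled summit was 5355 bp upstream of its start. In replicate 1, a region of rank 709 had its summit 486 bp beyond the downstream end of the window. The other lists had no summit within 2000 bp beyond the window on either side. The start of dpl-1 lies inside T23G7.2, a gene on the opposite strand.

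The MuvB core genes lin-9 and lin-54 each had a pooled region upstream of the start. LIN-54 is the subunit that binds the cell cycle genes homology region (CHR), and LIN-9 is a scaffold of the core. For lin-9 (III, 8900237 to 8904131, minus strand) the strongest pooled region ranked 3753 with a summit 448 bp upstream, and the regions that overlapped it ranked 18420 in replicate 1 and 3553 in replicate 2. The next pooled region, in an exon 683 bp downstream of the start, ranked 5253 in the pooled list, 3099 in replicate 1 and 22891 in replicate 2. The best ranks of lin-9 in the replicates, 3099 and 3553, thus came from sites 1152 bp apart. With 5 pooled regions in 4895 bp, lin-9 held the most of any member, and the lowest q-value among them was 0.807. Its pooled region of rank 21177 lay 718 bp from the start of unc-32 and 691 bp from that of ZK637.19, a noncoding RNA gene, both nearer than lin-9.

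For lin-54 (IV, 13241044 to 13243401, plus strand) the pooled region ranked 2188 with a signal value of 57.9 and a q-value of 0.71. It ranked 612 in replicate 2, and replicate 1 had no region in the window. Its nearest summit there lay 452 bp beyond the upstream end of the window, at rank 9709. The pooled summit was 323 bp upstream of lin-54 and 70 bp upstream of rpl-12, a gene of the large ribosomal subunit on the opposite strand, and in replicate 2 these distances were 367 and 26 bp. The region is thus nearer to the ribosomal protein gene.

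The 101 bases around the strongest pooled summit of efl-1, lin-9 and lin-54 are shown. They are read on the strand of the gene from the RefSeq sequence of WBcel235, which is assembly ce11. Capitals mark matches to an E2F site (TTCCCGC or TTCGCGC or TTGCCGC or TTGGCGC) or to a CHR (TTTGAA or TTCGAA), on either strand. TTCGAA reads the same on both strands, and none of the matches overlaps another.
efl-1, chrV:16965943-16966043, minus strand: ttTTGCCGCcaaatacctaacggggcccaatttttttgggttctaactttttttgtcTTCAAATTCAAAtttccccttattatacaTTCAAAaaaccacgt
lin-9, chrIII:8904529-8904629, minus strand: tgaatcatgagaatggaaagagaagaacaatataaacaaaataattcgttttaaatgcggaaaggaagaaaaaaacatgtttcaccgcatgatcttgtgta
lin-54, chrIV:13240671-13240771, plus strand: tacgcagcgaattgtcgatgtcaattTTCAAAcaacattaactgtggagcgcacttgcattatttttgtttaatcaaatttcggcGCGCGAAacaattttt
The efl-1 sequence holds 1 E2F and 3 CHR matches, that of lin-54 holds 1 of each, and that of lin-9 holds none. The E2F match of efl-1 was present at the summit of every candidate list, while that of lin-54 was not within 50 bp of the replicate 2 summit.

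An E2F match was thus present within 50 bp of the summit in 2 of the 5 members with a pooled region, and lin-35 and lin-53 had none there. Of all 30000 pooled summits, 2.46% had such a match, and of the 218 reproducible summits 12.4% did. A CHR match was present in 3 of the 5, namely efl-1, lin-53 and lin-54, against 33.1% of pooled and 27.5% of reproducible summits. The sets are unlike, since the 5 member summits are the strongest of their genes and lie upstream. All pooled summits include sites in gene bodies and background. Shares over the strongest upstream summits of all genes were not computed. In the 250 bp upstream of the start, an E2F match was found in efl-1, lin-9 and lin-53 but not in the other 5 members, and in 7.96% of all protein-coding genes. The efl-1 match, TTCCCGC at 228 bp upstream, lies within the pooled region, and so does that of lin-53, at 143 bp upstream. The lin-9 match, at 79 bp upstream, lies in no pooled region. It does lie within a replicate 2 region of rank 7277 (8904052 to 8904451), whose summit is 121 bp upstream of lin-9. In the same 250 bp a CHR match was found in 6 members, all but lin-35 and lin-52, against 64.3% of all genes. None of 5 words common at the reproducible summits of this series (GGCCGA or ACACGC or CGGCCA or GTACAC or GGCCTA) was found within 50 bp of the strongest summit of any member, in the pooled list or in either replicate list. Each word had been found in 11 to 16.1% of reproducible summits and in 1.67 to 2.62% of all pooled summits. Of the member summits only that of lin-35 is reproducible, so for the others the pooled share is the nearer comparison.

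GC content within 50 bp of the summit varied between members. In the pooled list it was 30.7% for lin-9, 34.7% for efl-1, 36.6% for lin-54, 41.6% for lin-35 and 56.4% for lin-53. In that list the first 3 were close to the median of 33.7% over all pooled summits, and lin-35 lay below and lin-53 above the median of 45.5% over the reproducible summits. For some members this value depended on the list. For lin-53 it was 20.8% at the summit of replicate 1 and 55.4% at that of replicate 2, and for lin-54 it was 49.5% at the replicate 2 summit.

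The remaining MuvB genes lin-37 and lin-52 had no pooled region. LIN-37 and LIN-52 are small subunits, and LIN-52 contacts the pocket protein. The window of lin-37 (III, 7070890 to 7072552, minus strand) held no summit in any list, and the nearest pooled summit was 5656 bp downstream of its start. For lin-52 (III, 9824083 to 9824750, minus strand) the replicate lists had regions but at different places. Replicate 1 had ranks 3352 and 20373, with summits 563 and 782 bp upstream of lin-52. The first lay in an exon of ZK632.9, the gene just upstream on the same strand, and the second 100 bp upstream of its start. Replicate 2 had rank 9570, 137 bp upstream and in the 3′ UTR of ZK632.9. The best summits of the replicates were 426 bp apart, so the lists do not share a site, and the pooled list had none.

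An annotated start need not be where transcription starts. Many C. elegans genes receive a spliced leader by trans-splicing, and the annotated start is then the splice acceptor, which ends in AG, with the transcription start at some distance upstream. The 30 bases before the annotated start of the 6 members shown here, read from the same genome, are given with a final AG in capitals.
efl-1, chrV:16965676-16965705, minus strand: ggatttttcaactaaaattccgcatttcAG
dpl-1, chrII:9169880-9169909, plus strand: ttttctcgtaatcaaagtcatcatttacAG
lin-9, chrIII:8904132-8904161, minus strand: gaaattattcaaaaatttgttatttttcAG
lin-37, chrIII:7072553-7072582, minus strand: tccaaataatgtattcctctccaattctAG
lin-52, chrIII:9824751-9824780, minus strand: ttaaattctgacatatagcggtaatttcAG
lin-54, chrIV:13241014-13241043, plus strand: tgctaaaacattgttttcctgattagttat
Of all 8 members, 7 have AG before the start, all but lin-54, against 27.6% of protein-coding genes. With TTTCAG the counts are 4 members, namely efl-1, lin-9, lin-52 and lin-53, and 12.3% of genes. Whether each of these starts is a trans-splice site was not tested.

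The histone-binding subunit gene lin-53 (chromosome I, 9618196 to 9619760, minus strand) had the region closest below the reproducible peaks. LIN-53 is the worm RbAp48 protein, which is shared by DREAM and several other chromatin complexes. Its pooled region (9619773 to 9620172) had a signal value of 84.8, rank 302 and a q-value of 0.101. The lowest reproducible peak, at rank 218, had a signal value of 94.4, and the next pooled region had 94.3. The rank of lin-53 was 329 in replicate 1 and 363 in replicate 2, so both replicates also placed it below their highest 218 regions. The replicate summits were 137 bp apart, and replicate 1 had a second, overlapping region at rank 10878.

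The lin-53 summit of the pooled list was 213 bp upstream of lin-53 and 254 bp upstream of nra-2, a divergent gene that encodes a nicalin-like protein. The intergenic sequence between them is 466 bp long. In replicate 1 the summit was 80 bp from lin-53 and 387 bp from nra-2. The paralogue rba-1, which lies just downstream of lin-53 on the same strand, had its best pooled region at rank 13307, in replicate 2 at rank 7494 and in replicate 1 none.

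**Figure D2:**
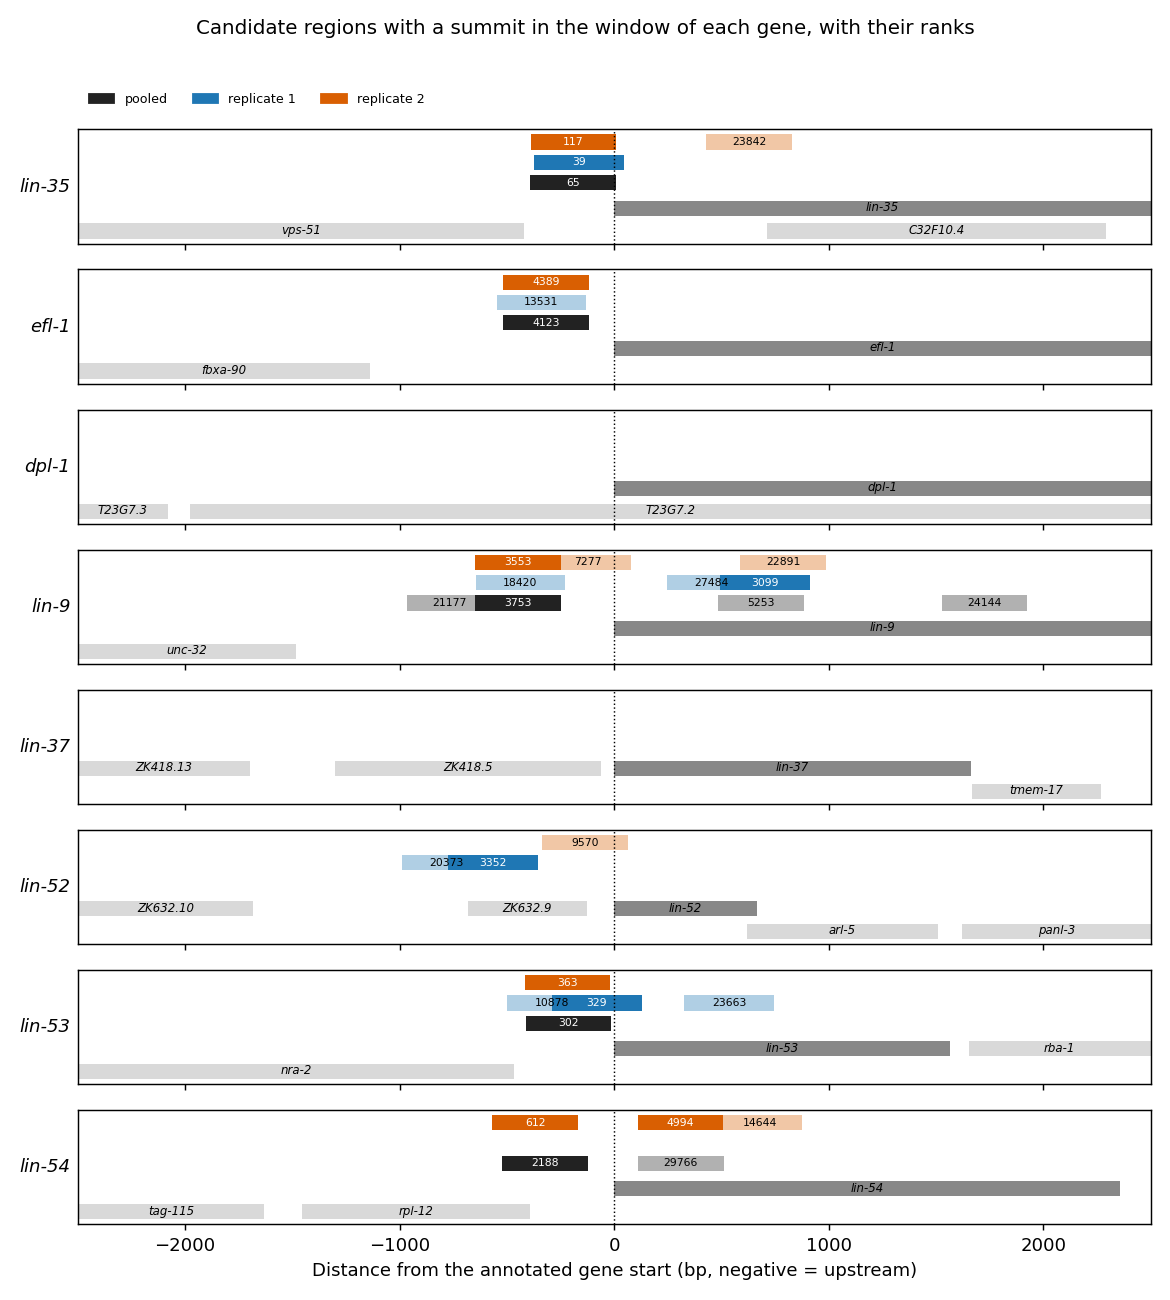
Regions with a summit in the window of each gene, by distance of their ends from the annotated start (x axis, bp, negative upstream, cut at 2500 bp, so regions farther inside a gene are not drawn), with the rank in the list printed on each bar. Solid bars have rank 5000 or better and pale bars a lower rank, dark grey bars are the member, and light grey bars are neighbouring protein-coding genes, drawn lower where on the opposite strand. The 5 members with a pooled region each have one upstream of the start.

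Every member with a pooled region had one in the 1000 bp upstream of its start. These 5 of 8 members (62.5%) compare with 30.2% of all protein-coding genes under the same rule. The 5 include lin-35, whose region led to the choice of the genes. They also include lin-54, whose region is nearer to rpl-12 and had no counterpart in replicate 1. The distance of the strongest pooled summit was 191 bp for lin-35, 213 bp for lin-53, 318 bp for efl-1, 323 bp for lin-54 and 448 bp for lin-9. The windows of the members held 0.363 pooled summits per kb, 0.391 in replicate 1 and 0.419 in replicate 2. Over all protein-coding genes the densities were 0.295, 0.299 and 0.297. The median window was 3507 bp for the members and 3027 bp for all genes.

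The 5 members with a pooled region also shared an arrangement, which was noticed after the values were seen. In each of them the nearest upstream protein-coding gene is divergent, at a gap of 392 bp (lin-54 and rpl-12), 417 bp (lin-35 and vps-51), 466 bp (lin-53 and nra-2), 1138 bp (efl-1 and fbxa-90) or 1483 bp (lin-9 and unc-32, a gene of the vacuolar proton pump). The 3 members without one have an upstream neighbour on the same strand, 60 bp away at lin-37 and 126 bp away at lin-52, or start inside another gene (dpl-1). Over all genes the arrangement went with little difference in pooled summits in the whole window. They were present for 62.1% of 8421 divergent genes, 62.7% of 10156 same-strand genes and 55.3% of 1391 genes that start inside another. For reproducible summits these shares were 1.64%, 0.798% and 0.647%. All these shares count the gene body as well as the 1000 bp upstream. Shares by arrangement for the upstream part alone, where the strongest member regions lie, were not computed. Among the 1815 divergent genes with a gap of up to 500 bp, which include lin-35, lin-53 and lin-54, 55% had a pooled summit and 2.98% a reproducible one. In all these shares a summit counts for every gene whose window holds it. A peak between close divergent genes, such as that of lin-35 and vps-51, thus counts for both genes. Shares that count each peak only for its nearest gene were not computed.

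In the order of best pooled rank, the members ran lin-35, lin-53, lin-54, lin-9 and efl-1. The ranks of lin-35 in the replicates (39 and 117) did not overlap those of lin-53 (329 and 363). Below these, lin-54 had rank 612 in replicate 2 and no region in replicate 1, so lin-53 was above it in both, while its order with lin-9 differed between replicates. The best ranks of lin-9 (3099 and 3553) were above those of efl-1 (13531 and 4389), but they came from separate sites. At the pooled lin-9 site the ranks were 18420 and 3553, which overlap those of efl-1 and put efl-1 higher in replicate 1. The ranks of lin-52 (3352 and 9570) overlapped the ranges of both lin-9 and efl-1. In the whole annotation, 70 genes had a best pooled rank as good as that of lin-35 or better (0.35%), 306 that of lin-53 (1.53%), 1713 that of lin-54 (8.58%), 2736 that of lin-9 (13.7%) and 2968 that of efl-1 (14.9%).

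**Figure D3:**
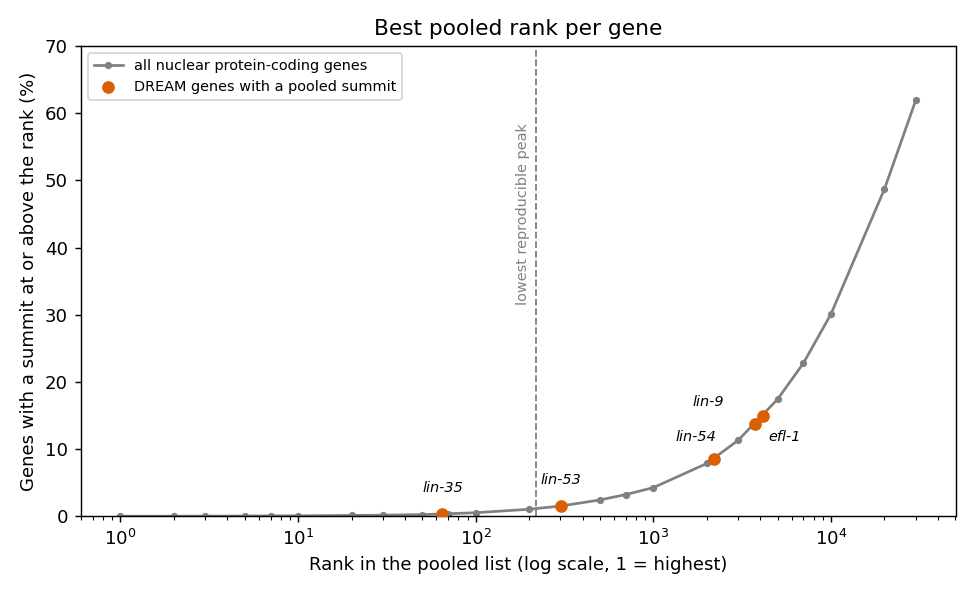
Share of all 19973 nuclear protein-coding genes with a summit at or above a given rank of the pooled list (y axis, %, against rank on a log scale). Points mark the best pooled ranks of the 5 members with a summit, from 0.35% of genes at lin-35 to 14.9% at efl-1, and the dashed line is rank 218.

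The genes with ranks most like those of lin-35 in the pooled and both replicate lists, by the sum of absolute log10 rank differences, were T02E1.2 (ranks 59, 46 and 116, sum 0.117) and the pair Y41D4A.6 and Y41D4A.4 (ranks 74, 45 and 180 for both, sum 0.306). The measure runs over 3 lists, and the pooled list holds the reads of the other two.

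Other genes of the pathway were looked up in 6 lists, none of which was independent of earlier results of these data. For reading their counts, 61.9% of all genes had a pooled summit, 11.3% one among the 3000 highest and 1.14% a reproducible one. Among 11 further synMuv B genes, 0 had a reproducible summit, 8 (72.7%) a pooled one and 2 (18.2%) one among the 3000 highest. Their median best rank was 19142 in the pooled list, 6621.5 in replicate 1 and 14802 in replicate 2, against 10377, 10333 and 10266 for all genes, so it lay on both sides of the background depending on the list. The best of them was lin-13, a zinc finger gene, at pooled rank 1482 and replicate 1 rank 258, with summits 5349 and 5362 bp inside the gene. Its best region in replicate 2, at rank 8259, was another site, 3459 bp inside. Of the 4 synMuv A genes (lin-8, lin-15A, lin-38 and lin-56), 0 had a pooled summit, 1 had one in replicate 1 (lin-15A) and 2 had one in replicate 2 (lin-15A and lin-8). In the list of proteins that share complexes with LIN-53, 11 of 15 genes (73.3%) had a pooled summit and 0 had one among the 3000 highest. The best was nurf-1, of the nucleosome remodelling factor, at rank 3580.

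Among 11 E2F paralogues and regulators of entry into S phase, 9 (81.8%) had a pooled summit, 3 (27.3%) among the 3000 highest, and 1 was at a reproducible peak. That gene was cye-1, which encodes cyclin E, the partner of CDK-2 in S phase entry. Its peak had rank 203 in the pooled list, 69 in replicate 1 and 877 in replicate 2. The pooled summit lay 1111 bp inside cye-1, 107 bp from the start of a tRNA gene (WBGene00022955) within it, and its q-value was 0.0272. Among 18 replication and mitosis genes, 10 (55.6%) had a pooled summit, 1 (5.56%) had one among the 3000 highest, and 1 had a reproducible one. It was pcn-1, which encodes PCNA, the sliding clamp of DNA polymerases, at pooled, replicate 1 and replicate 2 ranks 162, 1588 and 135, with the pooled summit 248 bp upstream. Of 7 P granule genes, which DREAM helps to keep silent in somatic cells, 5 (71.4%) had a pooled summit, the best at rank 7171 (pgl-1). Of these genes, 0 had a summit among the 3000 highest.

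**Figure D4:**
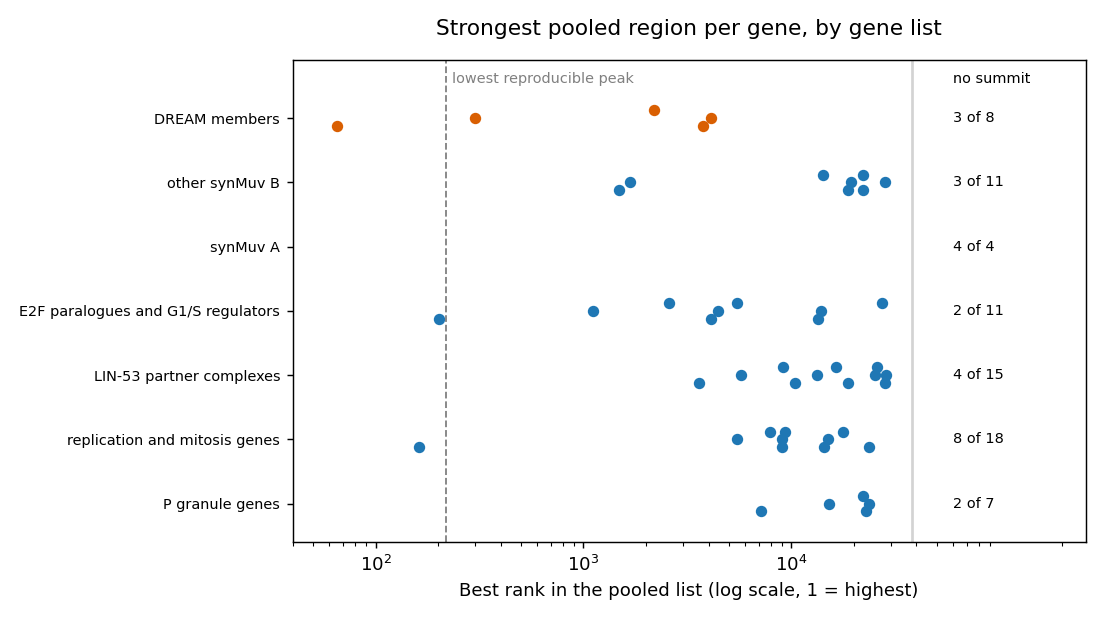
Best rank in the pooled list (x axis, log scale, rank 1 highest) of each gene in the DREAM members and 6 lists of related genes. Each point is a gene, its small vertical offset has no meaning, and the counts at the right are genes with no pooled summit. The 3 points left of the dashed line at rank 218 are lin-35, cye-1 and pcn-1.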

How the data were processed

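Peak lists of 2 replicates of a single group were analysed, on assembly ce11 per the deposited records. The authors made each candidate list from a replicate alignment, or both, with a single control alignment, and thresholded the reproducible list from these 3 lists. Not given in the sources used here are the aligner, the peak caller, the threshold and the nature of the control. The deposited signal value is a score of the authors' caller on an unstated scale, used only for ranks within a list. The deposited −log10 q-value was turned into a q-value. Chromatin had been sonicated to 200 to 800 bp, per the labels, which limits how finely summits are placed.

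Summits were assigned to 19973 nuclear protein-coding genes of Ensembl release 115 (WBcel235) with Python 3.11.15, pandas 2.3.3 and numpy 2.4.6, and to every gene whose window held them. The assignment was tested on simulated data. Sequence came from the RefSeq copy of WBcel235, and none is shown for lin-35 and lin-53. With 1 group and genes chosen on these data, no test was made. The members and lists were chosen with earlier results of these data known. Genes named by rule are all members, genes with a start within 1000 bp of a member summit, and the 3 most like lin-35 that share no summit with it. In each list, genes at a reproducible peak were named, or else the best by pooled rank. Outside this rule, T23G7.2, rba-1, unc-32 as a neighbour, the synMuv A genes and the tRNA gene in cye-1 are named. So are the genes under other observations, which were picked after their values were seen. Alternatives covered the window, region overlap, each replicate left out, the rank limit and the span around summits. The words for the motif search beyond E2F and CHR came from earlier results too.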

Additional observations from a re-analysis of the deposited data

How the results depend on the processing

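Of 58 alternative values for 8 results, 49 stayed within 1.5 times a count or, for other values, within 1 SD of the replicates. For the lin-35 rank of 65 that SD is wide, at 55.2, so a rank of 25 among the nuclear regions of replicate 1 falls within it. The count of members at a reproducible peak was 1 under all alternatives, including the 218 highest regions of either replicate. They also include a rule, chosen after seeing the data, that gives a summit only to the nearest protein-coding start. The genes were chosen after this lin-35 peak was seen, so the unchanged count is not a test. Under the other windows and region overlap, 0.846 to 1.39% of all genes had a reproducible peak. With a rank limit of 6000 in place of 3000, 5 members had a summit above the limit, against 20.1% of all genes, and with 1500 there were 2 against 6.13%. Without a replicate, the median best rank ran from 2082.5 to 3099. The density of 0.363 summits per kb ran from 0.391 to 0.419 without a replicate. It became 0.297 with 2000 bp upstream and 0.419 with region overlap. With the upstream part only it was 0.749, and from 1000 bp upstream to 200 bp downstream it was 0.624. Densities over all genes were not computed under these other windows. The values therefore cannot be set against the 0.295 of all genes in the main window. Median GC content at the summits was 36.6%, and 31.4% within 25 bp. The cause was not tested. No paired analysis was possible because there is 1 group. Read depth is unknown, which limits what can be said of the weak regions, those below the reproducible peaks.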

Other observations

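Several genes of the lists ranked high in 1 replicate only, and they were picked after their values were seen. The chromatin assembly factor gene chaf-2 ranked 356 in replicate 2 and had no summit in replicate 1 or the pooled list. The gene dcp-66, of a deacetylase complex, ranked 613 in replicate 2 and 25170 in the pooled list, with none in replicate 1. The atypical E2F gene efl-3 ranked 601 in replicate 1 and 4438 in the pooled list, with none in replicate 2.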
